A study of Homo sapiens with 5 samples.

Results

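HOX genes encode homeodomain transcription factors that give cells their position along the body axis. In humans they lie in 4 clusters, HOXA, HOXB, HOXC and HOXD. Genes with the same number in different clusters are paralogs, low numbers are used towards the head and high numbers towards the tail and the limb ends, and the order along a cluster follows the order of use. Adult and cultured cells of many kinds keep a set of active HOX genes, held on by Trithorax proteins and off by Polycomb proteins. The members described here are all probe sets assigned to a single gene named HOXA, HOXB, HOXC or HOXD plus a number. This gave 44 probe sets for 28 genes, out of 19775 genes with such probe sets on the array. Of the 28 genes 1 lies in HOXA (HOXA2), 10 in HOXB, 9 in HOXC and 8 in HOXD. The remaining HOXA genes and HOXD3 were not analysed here. In the annotation used, HOXD3 has only probe sets shared with other genes, and the remaining HOXA genes have none, alone or shared.

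The cells were HEK293, a line from human embryonic kidney, stably transfected either with the empty pcDNA4 vector (3 arrays) or with pcDNA4-PRL-1 (2 arrays). PRL-1 is a small protein tyrosine phosphatase encoded by PTP4A1. Each array came from its own culture, but a group is 1 stable line, so PRL-1 cannot be told apart from whatever else sets the lines apart. A further PRL-1 array had been left out by the authors because its RNA showed no raised PRL-1 by qRT-PCR. The values are MAS5 signals, linear intensities that cannot be compared between probe sets as amounts of RNA. The RNA came from whole cultures, in which fewer cells that express a gene and less RNA per cell cannot be told apart.

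The median signal over all probe sets lay between 124.2 and 166 on the 5 arrays. Vector replicate 3 stood apart, with log2 signals that correlated at 0.938 to 0.947 with those of the other arrays. None of the 4 tested probe sets of PTP4A1 was called higher (log2 fold change 0.06 to 0.15, adjusted p from 0.737 to 0.892), so directions below refer to arrays labelled PRL-1. Whether these probe sets read the transcript of the construct was not tested. The paper states that PRL-1 mRNA and protein had earlier been found raised in this stable line over the vector line. Of 8 marker genes chosen for HEK293 cells, 6 were at 100 or more on every array, NEFL, VIM and KRT18 among them, whereas NEFM was under 100 on all arrays in its brightest probe set. Their summed signal was 53844 to 63144 on the vector arrays and 54007 to 54822 on those labelled PRL-1. Such sums follow the brightest probe sets and say little about the others. Here these were NEFL and VIM, with mean vector signals of 30920 and 19762. Of markers of other cell types, 2 of 5 for fibroblasts were on in the vector group and 3 in the PRL-1 group, with summed signals of 1468 to 1692 and 1258 to 1673. For blood 2 of 4, for endothelium 1 of 3, for liver 0 of 2 and for keratinocytes 0 of 2 markers were on in both groups. PTPRC (blood), CDH5 and KDR (endothelium) and ALB (liver) were under 100 on all 5 arrays in their brightest probe sets. By contrast, COL1A1 and DCN (fibroblast), CD3E and HBB (blood) and PECAM1 (endothelium) were on in both groups. Their mean vector signals were 880.5, 387.5, 231.9, 544.7 and 496.8, in that order. Signals of this size were also found among the HOX genes taken as on below. Of the HEK293 markers, KRT8 differed between the groups without a call, at 998.8, 867 and 1582.9 on the vector arrays and 2140.6 and 2116.2 on the arrays labelled PRL-1 (adjusted p = 0.257). VIM gave a log2 fold change of -0.53 (adjusted p = 0.314) and PAX2 -0.75 (adjusted p = 0.341), and the part of such differences in the results below was not tested.

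A probe set was taken as on in a group when its signal was 100 or more on every array of the group, as off when it was below 100 on every array, and as mixed otherwise. A gene was on when at least 1 of its probe sets was on. This threshold is a cut on intensity, not a detection call. Among 27 bacterial spike-in probe sets, no array had more than 3 that reached it. Of all probe sets only 37.6% to 45.3% lay below it on an array, so passing it is common. In vector cells 25 of the 28 HOX genes were on, 2 were mixed and 1 was off. On the arrays labelled PRL-1 24 were on, 2 were mixed and 2 were off. Over all genes on the array the share that was on was 64.9% in the vector group and 64.8% in the PRL-1 group.

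**Figure D1:**
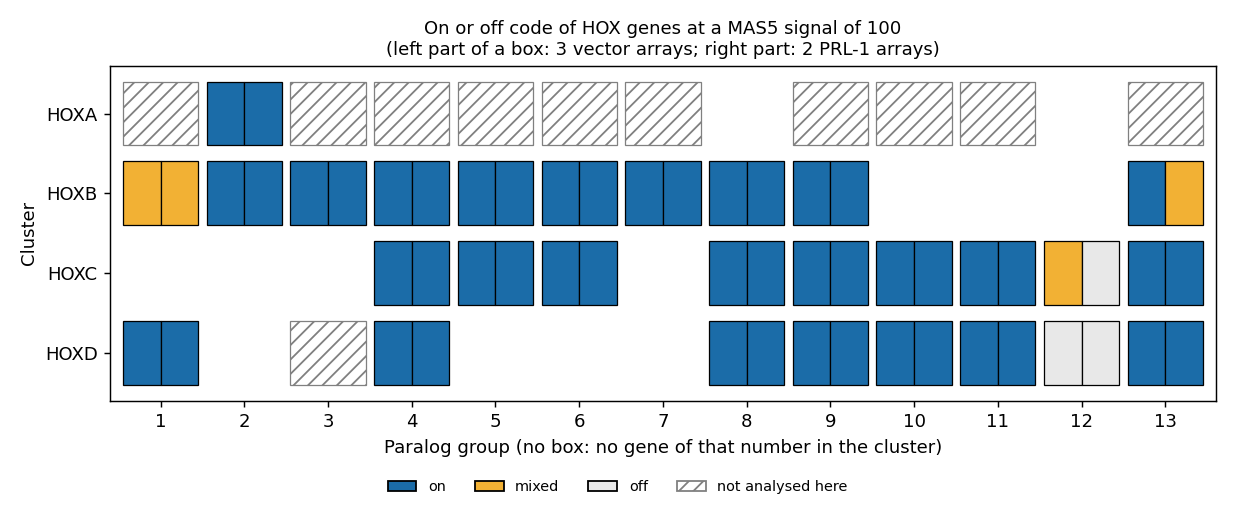
On, mixed or off code of the HOX genes at a signal of 100, with clusters as rows and paralog groups 1 to 13 as columns; in each box the left part stands for the 3 vector arrays and the right part for the 2 arrays labelled PRL-1. The central groups 4 to 8 are filled throughout among the genes analysed, and the open or mixed boxes are HOXB1, HOXB13, HOXC12 and HOXD12.

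By position, all 11 analysed genes of the central paralog groups 4 to 8 were on in both groups of arrays. Of the 5 analysed anterior genes (groups 1 to 3) 4 were on in both. Of the 12 posterior genes (groups 9 to 13) 10 were on in the vector group and 9 in the PRL-1 group. Exceptions stood at cluster ends or at group 12. HOXB1 was mixed in both groups, HOXC12 was mixed in vector cells and off on the arrays labelled PRL-1, HOXD12 was off in both, and HOXB13 was on in vector cells and mixed on the arrays labelled PRL-1. HOXB1 had signals on both sides of the threshold in both groups, such as 99.7 and 104.7 on vector arrays of 1 probe set. Of genes with 1 code in a group, HOXB8 and HOXA2 lay just above it with lowest signals of 107.9 and 108.5, and HOXC12 just below it with 95.5 on both arrays labelled PRL-1.

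HOXD11, HOXD12 and HOXD13 lie next to each other at the posterior end of their cluster, and only the gene between the others was off. That off code rests on 1 probe set, and whether this probe set reads the HOXD12 transcript was not tested. The 250 bases before the RefSeq start of each gene (GRCh38.p14, plus strand, 5′ to 3′) are shown to set the off gene beside its on neighbours, with CG dinucleotides in capitals. The windows are chr2:176092471-176092720 for HOXD13, chr2:176099545-176099794 for HOXD12 and chr2:176107030-176107279 for HOXD11.
HOXD13: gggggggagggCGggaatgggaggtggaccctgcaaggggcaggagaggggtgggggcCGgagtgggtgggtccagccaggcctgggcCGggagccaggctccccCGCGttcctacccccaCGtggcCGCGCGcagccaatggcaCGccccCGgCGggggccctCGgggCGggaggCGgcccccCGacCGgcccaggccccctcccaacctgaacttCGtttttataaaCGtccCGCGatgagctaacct
HOXD12: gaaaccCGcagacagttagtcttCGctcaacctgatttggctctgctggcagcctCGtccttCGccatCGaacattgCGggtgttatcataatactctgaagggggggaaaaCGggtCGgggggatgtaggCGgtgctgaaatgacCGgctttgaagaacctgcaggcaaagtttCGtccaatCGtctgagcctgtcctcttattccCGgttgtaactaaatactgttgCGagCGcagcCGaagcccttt
HOXD11: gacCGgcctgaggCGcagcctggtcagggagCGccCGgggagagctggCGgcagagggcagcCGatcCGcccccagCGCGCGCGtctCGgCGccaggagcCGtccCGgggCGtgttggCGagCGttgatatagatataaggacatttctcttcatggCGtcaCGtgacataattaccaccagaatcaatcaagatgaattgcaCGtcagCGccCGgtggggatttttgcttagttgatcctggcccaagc

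HOXD12 had 16 CG dinucleotides in its window, against 21 for HOXD13 and 23 for HOXD11, and 53.2% of its bases were G or C, against 74% and 61.6%. The median over 35114 such windows of all genes was 11 dinucleotides, so the off gene too was above it. Each of 3 promoter motifs was searched on both strands. TATAAA was found in the window of HOXD13, where the letters on both strands overlap, and in neither of the other windows (10.7% of all windows hold it). CCAAT was found in the windows of HOXD12 and HOXD13 (32% of all windows), and GGGCGG in those of HOXD11 and HOXD13 (42.6% of all windows). Matches are descriptions of the sequence and do not show that a factor binds there.

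Windows were given for 11 of the 28 genes, and their CG counts ran from 4 (HOXD4) to 31 (HOXD1). Both of these genes were on, whereas HOXB1, mixed in both groups, had 7. HOXC4 and HOXC5 have the same window, because their RefSeq transcripts start at the same base (chr12:54016638-54016887, plus strand, GRCh38.p14), and it is shown because the signals of both genes are given below.
HOXC4 and HOXC5: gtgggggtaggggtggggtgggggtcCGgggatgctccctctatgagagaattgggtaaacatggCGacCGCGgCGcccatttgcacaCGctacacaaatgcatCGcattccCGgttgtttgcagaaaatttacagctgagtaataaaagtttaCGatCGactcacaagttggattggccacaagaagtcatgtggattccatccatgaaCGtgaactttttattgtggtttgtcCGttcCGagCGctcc

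HOXD12, which acts in digit patterning, gave the lowest signals of all members, at 6.6, 4.3 and 5.8 on the vector arrays and 3.8 and 4.7 on the arrays labelled PRL-1. HOXD11, which acts with its paralogs in the forearm and the embryonic kidney, gave 936.2, 1048.6 and 787 against 897.6 and 873.2. The groups overlapped for both genes. HOXC12 was at 76.8, 81.3 and 124.4 on the vector arrays and 95.5 on both arrays labelled PRL-1, so 1 vector array alone made its code mixed. Neither HOXD12 nor HOXC12 reached 100 on 2 arrays, and they were not tested.

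Probe sets of a gene did not always give the same code. Of 13 genes with several probe sets, 4 had probe sets of different code in vector cells, namely HOXB8, HOXB13, HOXD1 and HOXD9. HOXD9 was on through 1 probe set (330.2, 486.9 and 577.9 in vector cells against 339.2 and 370). Its other probe set was off, between 10.3 and 23.6 on the 5 arrays. HOXD1 showed the same pattern, with 399.6, 383.3 and 591.1 against 432.9 and 317.3 in 1 probe set and 11.7 to 64.3 over the arrays in the other. HOXB8 was on at 107.9, 160.2 and 216.9 against 160.4 and 151.6 in 1 probe set, and its other probe set lay at 15.2 to 76.8. For these 3 genes, and for HOXB13 in vector cells, the on code rests on 1 probe set. A further 15 genes have only 1 probe set, among them HOXC12 and HOXD12, which were not on. HOXD1 and HOXD9 show that a probe set can be off where another of the same gene is on, which limits the off code of HOXD12.

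Differences between the groups were tested with limma on log2 signals. A probe set entered the test when at least 2 of the 5 arrays reached 100. Of the 44 HOX probe sets 39 entered and 5 did not, the latter being those of HOXD12 and HOXC12 and 1 each of HOXB8, HOXD1 and HOXD9. None of the 39 was called at adjusted p 0.05, where 0.192% of all tested probe sets were called. The adjusted p ran from 0.198 to 0.998. By unadjusted p under 0.05, limma gave 11 (10 lower and 1 higher), or 28.2%, where 9.72% of all tested probe sets passed. The methods' t-test gave 10 by unadjusted p, or 25.6%, where 8.59% of all tested probe sets passed. It gave 0 at 0.05 after Benjamini-Hochberg adjustment over the 33818 tested probe sets, among HOX as over all probe sets. The study adjusted over fewer probe sets, those passing presence calls, and used a looser threshold. Its own counts are therefore not comparable with these.

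Most HOX signals were lower on the arrays labelled PRL-1 by small amounts. The log2 fold change was below 0 in 30 of the 39 tested probe sets, with a median of -0.28, against 55.1% below 0 and a median of -0.04 over all tested probe sets. In 14 probe sets both arrays labelled PRL-1 lay below all vector arrays, or 35.9%, where 16.1% of all tested probe sets did. In 2 they lay above all vector arrays, where 12.8% of all did. By cluster the median was -0.37 over 18 tested probe sets of HOXB, -0.18 over 8 of HOXC and -0.06 over 12 of HOXD. By position it was -0.39 for anterior, -0.32 for central and -0.11 for posterior genes. Differences between clusters or positions were not tested, and probe sets of a gene share a transcript.

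**Figure D2:**
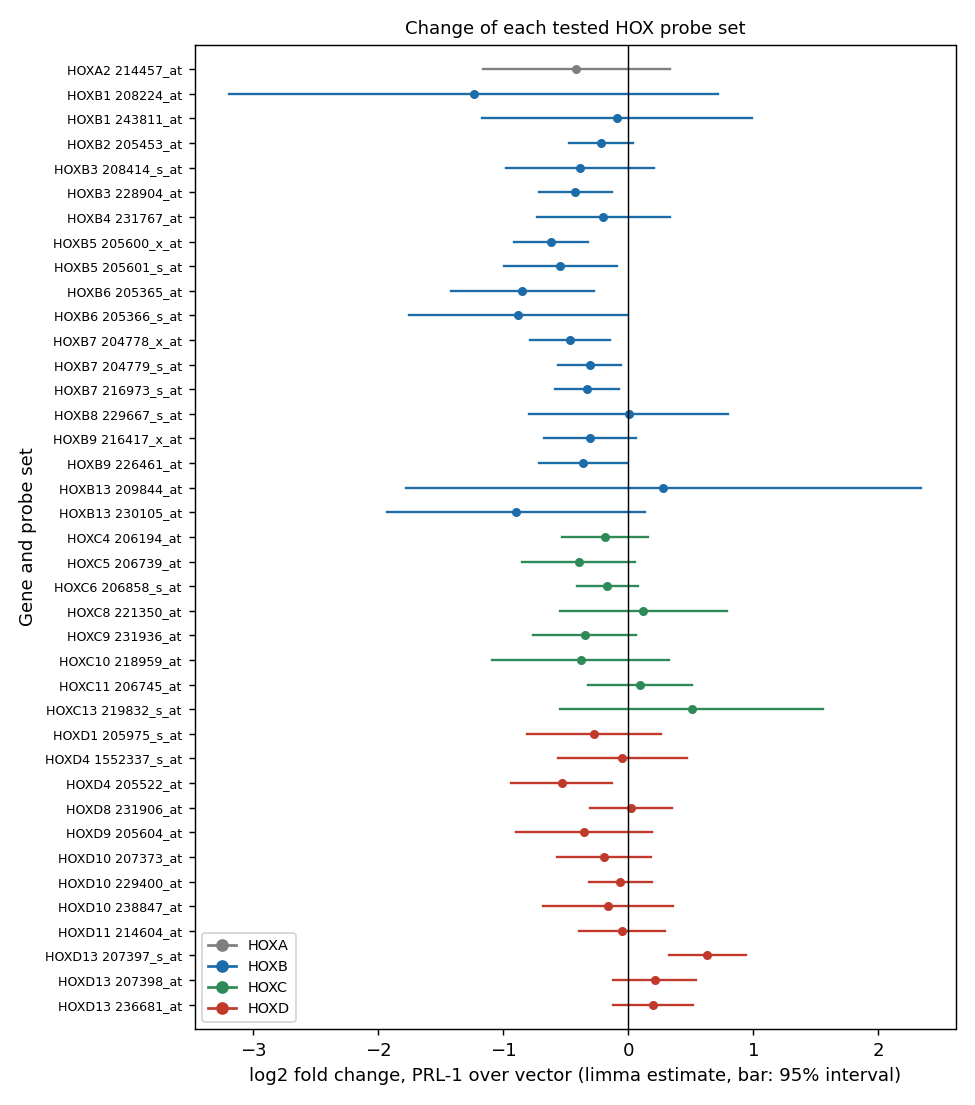
Log2 fold change of arrays labelled PRL-1 over vector arrays for the 39 tested HOX probe sets, with dots for the limma estimate, bars for its 95% interval, and colours for the clusters. Most HOXB dots lie left of 0, with a median of -0.37, and the 3 HOXD13 dots lie right of it, between 0.20 and 0.63.

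In HOXB most tested probe sets had lower signals on the arrays labelled PRL-1. Of its 18 tested probe sets 16 had a log2 fold change below 0, and in 11 of the 18 (61.1%) both arrays labelled PRL-1 lay below all vector arrays, where 16.1% of all tested probe sets did. The 11 span 6 genes, HOXB2, HOXB3, HOXB5, HOXB6, HOXB7 and HOXB9. All probe sets of HOXB5 and HOXB7, and the dimmer ones of HOXB3 and HOXB9, end in _s_at or _x_at. Cross-hybridization between paralogs, possible for such probe sets, was not tested. Taken per array and relative to the vector mean of each probe set, the median HOXB log2 signal was 0.07, -0.02 and 0.05 for the vector cultures, whereas both PRL-1 cultures were lower, at -0.37 and -0.40. The vector cultures enter that mean, which holds their values near 0 and those of the PRL-1 cultures not. Over all tested probe sets the same measure was -0.02, -0.01, 0.07, -0.05 and 0.01. Quantile normalization gave a HOXB median of -0.38, with 15 of 18 below 0, and median centring -0.33, with 16 of 18 below 0.

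**Figure D3:**
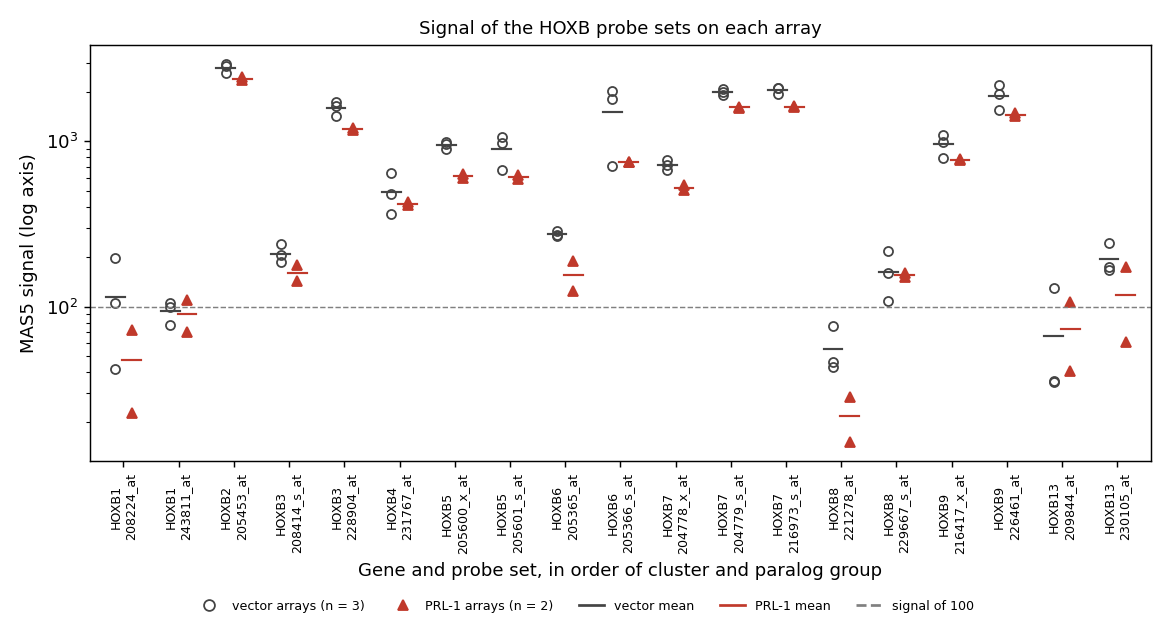
MAS5 signal (log axis) of the 19 HOXB probe sets in paralog order for vector (circles, 3 arrays) and PRL-1 (triangles, 2 arrays); short bars are group means and the dashed line is 100. From HOXB2 to HOXB9 the triangles lie at or under the lowest circle in most probe sets, while HOXB1 and HOXB13 scatter around the line.

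HOXB5, which acts in the enteric nervous system and in blood vessels, had the smallest adjusted p of all members. It gave 988.4, 895.9 and 958.1 on the vector arrays and 634.5 and 599.5 on the arrays labelled PRL-1, which was 1.53-fold lower (log2 fold change -0.62, 95% interval -0.91 to -0.32, adjusted p = 0.198). Its other probe set gave 982.9, 675.4 and 1057.6 against 591.1 and 628.2 (-0.54, adjusted p = 0.43). The groups did not overlap in either probe set, but neither was called.

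HOXB6, the neighbour of HOXB5, differed in its spread between its 2 probe sets. In the dimmer one the signals were 268.4, 269.7 and 287.3 in vector cells, compared with 124 and 188.5 on the arrays labelled PRL-1 (log2 fold change -0.85, adjusted p = 0.328). In the brighter one they were 2024.6, 1816.2 and 705.2 against 749.1 and 745.9 (log2 fold change -0.88, 95% interval -1.75 to -0.003, adjusted p = 0.512). Vector replicate 3 thus lay with the arrays labelled PRL-1 in the latter. Without that array this probe set was called at -1.36 (adjusted p = 0.000641), and without vector replicate 1 or 2 its log2 fold change was -0.60 or -0.68 with no call.

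HOXB7, whose promoter is widely used to mark the ureteric bud of the kidney, was lower in all 3 of its probe sets with no overlap and no call. The probe set with the highest signals gave 2112.1, 1923.4 and 2098.5 in vector cells, compared with 1635.1 and 1617.8 on the arrays labelled PRL-1 (log2 fold change -0.33, 95% interval -0.58 to -0.07, adjusted p = 0.407). In the dimmest the values were 771.6, 722.3 and 673.1 against 542.3 and 504.6 (-0.46, adjusted p = 0.343). The remaining probe set gave -0.31 (adjusted p = 0.422). These probe sets target 1 gene and are not independent of each other.

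HOXB3, which acts in the hindbrain, gave 1732, 1647.2 and 1429.2 in vector cells, compared with 1172.1 and 1209.4 on the arrays labelled PRL-1 (log2 fold change -0.42, 95% interval -0.71 to -0.13, adjusted p = 0.335). Without vector replicate 3 it was called at -0.50 (adjusted p = 0.0494). Its dimmer probe set gave -0.39 (adjusted p = 0.676). HOXB2, another hindbrain gene, gave 2960.2, 2842.8 and 2582.7 against 2457.5 and 2347 (-0.22, adjusted p = 0.582). For both genes the groups did not overlap, and the HOXB2 difference of 1.16-fold was the smaller.

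HOXB9, active in the thoracic skeleton, gave 1546.3, 1931.8 and 2183 in vector cells, compared with 1487.4 and 1416.9 on the arrays labelled PRL-1 (-0.36, 95% interval -0.72 to -0.01, adjusted p = 0.5). Its vector arrays were spread widely, with an SD of 321 around a mean of 1887. HOXB4, known for expanding blood stem cells, gave 646.4, 478.4 and 363.2 against 426.9 and 413.5, so that the groups overlapped (-0.20, adjusted p = 0.821). HOXB8 gave 0.01 (95% interval -0.79 to 0.80, adjusted p = 0.998), which leaves a wide range of differences undetectable with these arrays.

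At the ends of the cluster the signals were dim. HOXB1, a gene of hindbrain segment identity, gave 77.6, 104.7 and 99.7 in vector cells, compared with 69.9 and 109.7 on the arrays labelled PRL-1 in 1 probe set (-0.09, adjusted p = 0.967). Its other probe set scattered more, at 105, 42.1 and 196 against 72 and 22.7 (-1.24, 95% interval -3.19 to 0.72, adjusted p = 0.685). HOXB13, a prostate gene that lies apart from the other HOXB genes, gave 241.1, 167.1 and 173.5 against 174.1 and 60.7 (-0.90, 95% interval -1.93 to 0.14, adjusted p = 0.567). Without PRL-1 replicate 2 its log2 fold change was -0.13, so the difference rested on that array. Its other probe set gave 128.8, 35.4 and 35 against 106.1 and 40.8 (0.28, adjusted p = 0.946), so the probe sets differed in sign.

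Genes that flank the cluster were read beside it. CALCOCO2, a receptor of selective autophagy, gave 3362.4, 3239.5 and 3979.6 in vector cells, compared with 2808.5 and 2333.5 on the arrays labelled PRL-1 (-0.46, adjusted p = 0.331). CBX1, a heterochromatin protein, gave 5445.7, 5189.1 and 5496.6 against 4476.7 and 4311.3 (-0.29, adjusted p = 0.421). In both the groups did not overlap, and neither was called. SNX11 (-0.03, adjusted p = 0.971) and SKAP1 (0.06, adjusted p = 0.97), also beside HOXB, had overlapping groups, and TTLL6 was off, as was PRAC1, which lies between HOXB9 and HOXB13. These 4 were picked after their values were seen.

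HOXD13, which patterns the digits and the end of the gut and urogenital tract, had higher signals on the arrays labelled PRL-1, without a call. In 1 probe set it gave 689.4, 651.8 and 774.7 in vector cells, compared with 1068.5 and 1113.8 on the arrays labelled PRL-1, which was 1.55-fold higher (log2 fold change 0.63, 95% interval 0.32 to 0.94, adjusted p = 0.201). Its other probe sets gave 453, 435.3 and 457 against 513.1 and 526.8 (0.21, adjusted p = 0.68), and 1581.9, 1369.3 and 1215.6 against 1624.4 and 1544.4 (0.20, adjusted p = 0.689). All 3 were above 0, but the groups overlapped in the last. Without vector replicate 3 the first was called at 0.70 (adjusted p = 0.0268). It stayed above 0 in every alternative run, between 0.58 and 0.70.

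**Figure D4:**
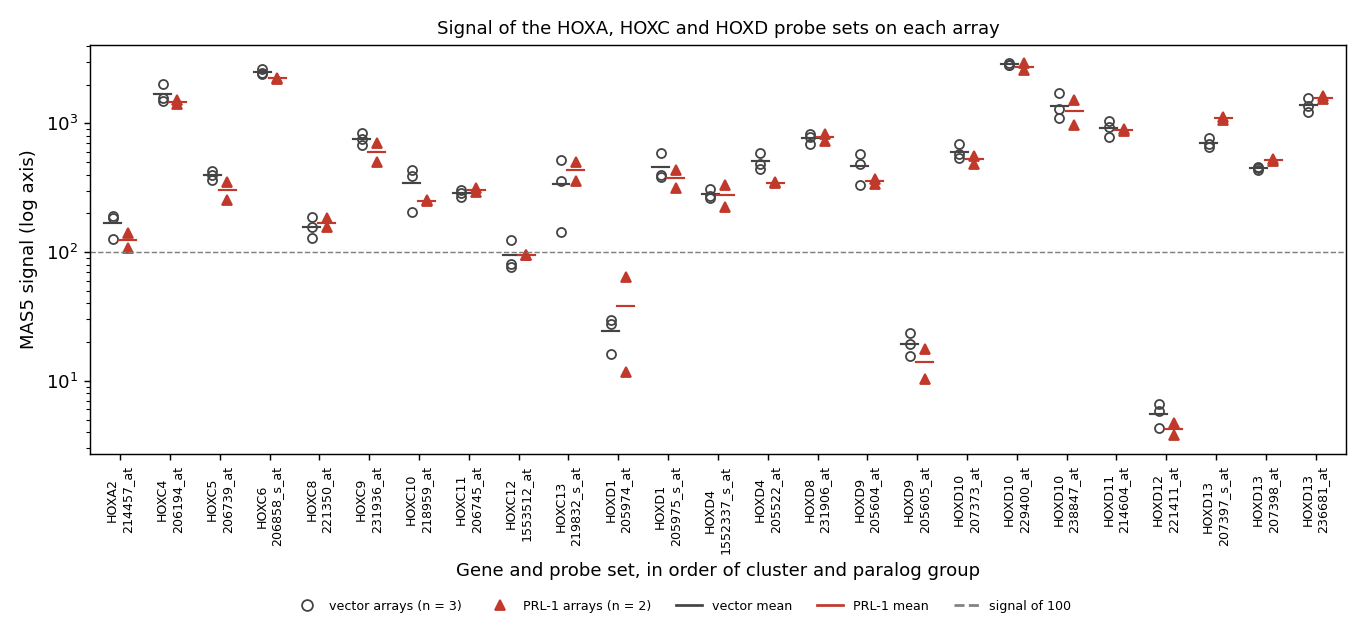
MAS5 signal (log axis) of the HOXA2, HOXC and HOXD probe sets in order of cluster and paralog group for vector (circles, 3 arrays) and PRL-1 (triangles, 2 arrays); short bars are group means and the dashed line is 100. HOXD12 lies under 10 on all 5 arrays between on neighbours, and the triangles of 1 HOXD13 probe set, 1068.5 and 1113.8, lie above its circles.

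No other HOXD gene had both arrays labelled PRL-1 above all vector arrays. HOXD4, a gene of the cervical level, gave 441.8, 589.1 and 486.5 in vector cells, compared with 346.5 and 347.5 on the arrays labelled PRL-1 in its brighter probe set, without overlap (-0.53, adjusted p = 0.392). Its other probe set gave -0.05 (adjusted p = 0.963), so the probe sets of HOXD4 disagreed. HOXD8 gave 828.1, 691.4 and 781.1 against 727.9 and 825.8 (0.02, 95% interval -0.31 to 0.35, adjusted p = 0.975).

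HOXD10, which acts in lumbar motor neurons, gave 2930, 2853.8 and 2830.7 in vector cells, compared with 2926 and 2581.5 on the arrays labelled PRL-1 in its brightest probe set (-0.06, 95% interval -0.31 to 0.19, adjusted p = 0.886). The 2 other probe sets of HOXD10 gave -0.19 and -0.16. HOXD11 gave -0.05 (95% interval -0.40 to 0.29, adjusted p = 0.938), HOXD9 -0.35 (adjusted p = 0.677) and HOXD1 -0.28 (adjusted p = 0.743). The intervals given for HOXD8, HOXD10 and HOXD11 lie on both sides of 0 and are narrower than those of the dim HOXB genes.

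In HOXC, 8 of 9 genes were on in both groups of arrays and none was called. HOXC6, a gene of the thoracic level, gave 2458.4, 2637.8 and 2432.5 in vector cells, compared with 2228.9 and 2240.3 on the arrays labelled PRL-1 (-0.17, 95% interval -0.41 to 0.08, adjusted p = 0.663). HOXC5 gave 396.2, 365.4 and 423.6 against 254.6 and 353.2 (-0.40, adjusted p = 0.564). These were the HOXC genes whose groups did not overlap. HOXC4, which shares its start with HOXC5 as shown above, gave 1478.3, 1567.8 and 2008.9 against 1421.9 and 1512.1, with overlapping groups (-0.19, adjusted p = 0.725).

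HOXC9, which sets thoracic motor neuron identity, gave 835.6, 684.2 and 760.1 in vector cells, compared with 499.1 and 708.2 on the arrays labelled PRL-1 (-0.35, adjusted p = 0.579). HOXC8 gave 187, 128.6 and 156.2 against 155.5 and 183.7 (0.12, adjusted p = 0.925). HOXC10, a lumbar gene, gave 391.2, 205.7 and 434.2 against 251.9 and 250.4 (-0.38, adjusted p = 0.73). All 3 overlapped between groups.

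HOXC11 gave 268.4, 285.9 and 304.1 in vector cells, compared with 316.9 and 293.3 on the arrays labelled PRL-1 (0.09, adjusted p = 0.902). HOXC13, a gene of hair and nail formation, gave 521.6, 356.8 and 144.2 against 503.3 and 359.7 (0.51, adjusted p = 0.759). Without vector replicate 3, its lowest array, the log2 fold change was -0.02. HOXA2, which acts in the second pharyngeal arch, gave 184.2, 126.6 and 189.9 against 108.5 and 139.9 (-0.42, adjusted p = 0.72), and all its signals lay within 108.5 to 189.9.

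Of 16 long RNAs listed for the clusters 10 had probe sets, 8 were tested and none was called. HOTAIR, transcribed within HOXC between HOXC11 and HOXC12 and studied for its action on HOXD chromatin, gave 48.9, 76.2 and 149.9 in vector cells, compared with 253.7 and 254.5 on the arrays labelled PRL-1 (log2 fold change 1.63, 95% interval 0.54 to 2.71, adjusted p = 0.322). The groups did not overlap, but 2 of the vector signals lay under 100, so the size of the fold is uncertain. HOXA11-AS, an antisense RNA of HOXA, gave 352.1, 426.1 and 322 against 274 and 271.8 (-0.42, adjusted p = 0.525). Its dimmer probe set gave 112.7, 114.2 and 106.8 against 9.5 and 59.9 (-2.22, 95% interval -4.28 to -0.16, limma adjusted p = 0.476). There too the groups did not overlap, but both arrays labelled PRL-1 lay under 100.

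HOTTIP, at the far end of HOXA, gave 578, 361.9 and 293.7 against 300.4 and 268 (-0.48, adjusted p = 0.624), with overlapping groups. HAGLR, in HOXD, gave 529.9, 482.7 and 580.8 against 618.9 and 430.3 (-0.04, adjusted p = 0.966). Of the 8 tested long RNAs 7 had a value below 0, with a median of -0.26.

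Proteins that work with HOX factors or keep their genes on or off were read from lists through the brightest tested probe set of each gene. Of 92 genes in all lists, long RNAs and cluster neighbours included, 79 had probe sets and 72 were tested. None was called by limma or by the methods' t-test. By unadjusted p under 0.05 limma gave 5, or 6.94%, where 9.72% of all tested probe sets passed. The t-test gave 4, or 5.56%, where 8.59% of all did. The median log2 fold change over the 72 genes was -0.03, with 33 above and 39 below 0.

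TALE cofactors bind DNA together with HOX proteins. Of 9 listed 8 had probe sets and were tested, with a median of -0.01. PBX2 gave 793.9, 1002.6 and 722.8 in vector cells, compared with 1043.4 and 1259 on the arrays labelled PRL-1 (0.46, adjusted p = 0.439). MEIS1 was lower without a call at 612.9, 556.1 and 608 against 476.3 and 477.8 (-0.31, adjusted p = 0.525). PBX3 gave 0.23 (adjusted p = 0.562) and MEIS2 -0.05 (adjusted p = 0.921), and both were on in all arrays.

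Trithorax proteins of the MLL complexes, which methylate histone H3 at active HOX genes, had a median of 0.03 over 10 tested genes. ASH2L, a core subunit, gave -0.24 (adjusted p = 0.615) and KDM6B, a demethylase that removes the Polycomb mark, -0.16 (adjusted p = 0.772). PSIP1, which tethers MLL to chromatin, gave 0.02 (adjusted p = 0.964), and the core subunit DPY30 0.003 (adjusted p = 0.996). Polycomb complex PRC2, which places the repressive mark on HOX clusters, had a median of 0.02 over 10 tested genes. Its catalytic subunit EZH2 gave 2643.7, 2846.6 and 3001.5 against 2644.5 and 2740.3 (-0.07, adjusted p = 0.871), and was picked here for its role after its values were seen. The related EZH1 gave -0.32 (adjusted p = 0.537), the subunit SUZ12 0.19 (adjusted p = 0.645) and the histone-binding RBBP7 and RBBP4 -0.22 (adjusted p = 0.646) and 0.03 (adjusted p = 0.948).

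Polycomb complex PRC1 had a median of -0.05 over 8 tested genes. PHC1, a polyhomeotic subunit, had the smallest adjusted p of all lists, at 1309.4, 1348.7 and 1292.7 in vector cells, compared with 953.6 and 919.8 on the arrays labelled PRL-1 (-0.49, 95% interval -0.76 to -0.23, adjusted p = 0.246). PHC3, its relative, gave 0.27 (adjusted p = 0.618), CBX6 0.23 (adjusted p = 0.679) and RING1 -0.04 (adjusted p = 0.933).

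Retinoic acid induces anterior HOX genes, and CDX factors act on central ones. CDX1 and CDX4 were off on all arrays. CDX2 was on, at 183.1, 172.9 and 121.8 against 100.3 and 141.2 (-0.40, adjusted p = 0.745). These 3 were picked after their values were seen. ALDH1A2, which makes retinoic acid, gave 4272.5, 4327.2 and 3618.3 against 4239.4 and 4208.4 (0.06, adjusted p = 0.906). CYP26B1, which degrades it, gave 0.60 (adjusted p = 0.618) from vector signals of 87.2 to 137.6, and the related CYP26A1 -0.29 (adjusted p = 0.712). The retinoid receptor RXRB gave -0.06 (adjusted p = 0.935). The list's median was -0.11 over 10 tested genes. CTCF, which binds at boundaries within the clusters, gave 1658.6, 1657.4 and 1636.5 against 1675.4 and 1638.6 (0.01, 95% interval -0.24 to 0.25, adjusted p = 0.991), and was picked for its role after its values were seen. The cohesin subunits RAD21 and SMC1A gave -0.19 (adjusted p = 0.627) and -0.08 (adjusted p = 0.839).

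Flanking genes of the other clusters were likewise picked after their values were seen. Around HOXD, the flanking genes MTX2 and LNPK gave 0.08 (adjusted p = 0.84) and 0.09 (adjusted p = 0.851), in each case with both arrays labelled PRL-1 just above all vector arrays, and ATP5MC3 gave 0.02 (adjusted p = 0.968). Around HOXC, CBX5 gave -0.12 (adjusted p = 0.887) and SMUG1 -0.03 (adjusted p = 0.973). Around HOXA, HIBADH gave 0.12 (adjusted p = 0.79) and SKAP2 -0.01 (adjusted p = 0.98), and EVX1, itself a homeobox gene, was off on all arrays.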

How the data were processed

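RNA from 3 cultures of HEK293-vector cells and 2 of HEK293-PRL-1 cells had been hybridized to HG-U133 Plus 2.0 arrays. The authors deposited MAS5 signals (affy library, default settings), an intensity per probe set after mismatch correction, robust averaging and scaling of every array to a trimmed mean, which was 500 on all 5 arrays. Number of arrays, not depth, limits precision. MAS5 presence calls, which the study used as a filter, were not used here.

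Genes were named through the platform annotation, updated through gene identifiers. Of 54675 probe sets, 62 controls were left out, 41091 carried a single symbol, 1801 more than 1, and 11721 are unnamed here. Probe sets with a signal of at least 100 on at least 2 arrays (33818) were taken to log2 and fitted across all probe sets with limma 3.58.1 in R 4.3.3 (lmFit, eBayes with an intensity trend, two-sided, with group as the only term). A call was an adjusted p (Benjamini-Hochberg) of 0.05 or less. P-values measure the spread between cultures of 1 line per group.

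HOX members and all lists were chosen with earlier results of these data known. Values are given for each HOX gene on or mixed in either group, for the 5 HOX probe sets with the smallest adjusted p, and for the 2 genes of each list with the smallest adjusted p and the 2 brightest, with exceptions named in the text. Cross-hybridization between paralogs, possible for probe sets ending in _s_at or _x_at, was not tested. Promoter sequences are from RefSeq (GRCh38.p14). Alternatives covered filter, log offset, normalization, replicate block, trend, the methods' t-test, threshold and each array left out.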

Additional observations from a re-analysis of the deposited data

How the results depend on the processing

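No HOX probe set was called under other filters, a log offset of 32, quantile normalization, median centring, no trend or the methods' t-test, which keep all arrays. The replicate number as a block called 4 HOX probe sets (HOXB3 adjusted p = 0.0437, HOXB5 0.041, HOXB6 0.00045 and HOXD13 0.025) and 1 listed gene, HOTAIR (0.0456). Same-numbered arrays correlated at 0.06 and -0.06 in their deviations from their group mean. Both PRL-1 arrays deviate from that mean by equal amounts in opposite directions, so these values are not independent. They cannot decide whether the numbers pair the cultures. The block in effect drops vector replicate 3. With 1 array left out at a time, 0 to 3 HOX probe sets were called, the 3 being HOXB3, HOXB6 and HOXD13 without vector replicate 3. The listed genes gave 0 calls each time. The median HOX log2 fold change ranged from -0.30 to -0.19. With a single PRL-1 array, its variance was taken from the vector cultures. Of 372 alternative values for 29 named HOX probe sets, 7 passed the threshold and 13 had the other sign, none of them called (lowest adjusted p = 0.824). The latter were of HOXB1, HOXB4, HOXB8, HOXC8, HOXC13, HOXD8, HOXD10 and HOXD11.

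Over the whole array 65 probe sets were called, 448 with the block, 9 without the trend, 0 by the methods' t-test and 11 to 313 with 1 array left out. These causes were not tested. The number of HOX genes on was 20 to 27 in vector cells and 21 to 27 on the arrays labelled PRL-1 over thresholds of 50 and 200, and kept within 1 of its value under the other settings run.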

Other observations

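Probe sets assigned to several genes did not enter the counts. Of 3 that are assigned to HOXD3, HOXD4 and another transcript together, 1 gave 256.6, 174.7 and 263.9 in vector cells, compared with 136 and 243.9 on the arrays labelled PRL-1 (log2 fold change -0.32, limma adjusted p = 0.781) and could not be assigned to 1 of these genes. Another gave 5.9 to 63.7 over the 5 arrays, and the last 108.2, 93.6 and 104.4 against 60.1 and 70.3 (-0.65, adjusted p = 0.702). A probe set assigned to MIR10A, a microRNA gene inside HOXB, gave 836.7, 979.8 and 1127.4 against 1001.3 and 689.5 (-0.23, adjusted p = 0.74). It was picked after its values were seen, and it reads a longer transcript, not the mature microRNA.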
